A study of Caenorhabditis elegans with 2 samples.

Results

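Axon guidance, growth cone and extracellular matrix genes of Caenorhabditis elegans were examined for binding by CEH-43. They numbered 44 of the 19973 nuclear protein-coding genes, and comprised 10 ligands, 12 receptors and surface adhesion proteins, 7 matrix and proteoglycan genes and 15 cytoplasmic growth cone genes. The genes were chosen by their known roles, and the list was drawn up with earlier results of the same peak lists in view, so counts of members with a peak below are descriptions without a test. Binding was measured by chromatin immunoprecipitation with sequencing (ChIP-seq) in embryos of strain OP699, in 1 group of 2 biological replicates. The strain has the unc-119(tm4063) mutation and the integrated transgene wgIs699, which carries ceh-43::TY1::EGFP::3xFLAG and a rescuing unc-119(+) gene. An anti-GFP antibody was used to precipitate the fusion protein. Embryos came from egg bleaching, had a stated age of 3 hours, were of mixed stage and of pooled sex, and gave chromatin sonicated to between 200 and 800 bp. All embryos carried the transgene, so the measured protein came from a single transgenic line. Embryos without the tag were not analysed here.

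Growing axons are steered by secreted and membrane-bound cues such as netrins, slits, ephrins and semaphorins, which act on receptors at the growth cone. The receptors act through cytoplasmic proteins that remodel actin and microtubules, and basement membrane proteins and heparan sulphate proteoglycans shape where the cues act. CEH-43 is the worm counterpart of Distal-less, a family of homeodomain transcription factors that bind a TAATT core, and is known for its role in dopamine neurons and in the anterior hypodermis. Because chromatin came from whole embryos, strong binding in few cells and weak binding in many cells cannot be told apart.

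The authors deposited 4 peak lists on assembly ce11. The thresholded list, derived from the replicates together, had 975 peaks on nuclear chromosomes and 23 on the mitochondrial genome, and relaxed lists held 30000 peaks for both replicates together, 29979 for replicate 1 and 26127 for replicate 2. Each peak has a summit and a signal value of unstated scale. Peaks were therefore ranked by signal within each list, with rank 1 the strongest, and read depth is unknown. The thresholded peaks were the strongest of the relaxed list from both replicates. For each replicate, the top set is defined here as the same number of its own strongest peaks as the thresholded list holds. A gene was counted as having a peak when a thresholded summit lay inside it or within 5000 bp of any of its starts, and this stretch is called its window.

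Of the 44 genes, 13 had a thresholded summit in the window (29.5%, exact 95% interval 16.8 to 45.2), against 10.1% of all protein-coding genes. These were the ligand genes unc-129, efn-4 and mab-20, the receptor genes ptp-3, dgn-1, vab-1 and sax-3, the matrix genes lam-1 and sdn-1, and the growth cone genes unc-33, unc-44, unc-34 and unc-115. Guidance genes are long, and 29 of the 44 fell in the tenth of genes with the longest windows, which ran from 12863 to 110905 bp. The median window was 14918 bp for the listed genes and 10001 bp for all genes. Genes outside the list with the same window lengths had a peak at a share that gives 6.67 of 44 (15.2%), so the observed 13 were 1.95 times that number. Per megabase of window the listed genes held 20.5 summits, over 0.827 Mb, against 9.76 over 94.6 Mb at the other genes, a measure chosen after seeing the data. The 13 genes shared 17 summits, with a pair each at unc-33, unc-44, unc-115 and vab-1.

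Of the 17 summits, 6 had the word TAATTR, which is TAATTA or TAATTG, within 50 bp on either strand. The words were found by search and are descriptions of sequence, not sites shown to be bound. The sequences of 5 of these summits are shown because the word lay within 30 bp of the point of strongest signal. Each runs 30 bp to either side of the summit on the forward strand of ce11, taken from the RefSeq copy of that assembly, with TAATTR or its reverse complement in capitals. The unc-33 intron lies at chrIV:3521883-3521943, the unc-44 intron at chrIV:5978404-5978464 and the stretch upstream of unc-44 at chrIV:5973463-5973523. The stretch upstream of unc-34 lies at chrV:978805-978865 and the dgn-1 intron at chrX:10925717-10925777.
unc-33 intron: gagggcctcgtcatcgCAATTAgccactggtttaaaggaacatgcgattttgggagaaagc
unc-44 intron: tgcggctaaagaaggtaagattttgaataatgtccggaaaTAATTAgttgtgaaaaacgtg
unc-34 upstream: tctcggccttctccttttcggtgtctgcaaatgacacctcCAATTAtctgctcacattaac
dgn-1 intron: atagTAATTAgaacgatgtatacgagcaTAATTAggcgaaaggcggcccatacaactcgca
unc-44 upstream: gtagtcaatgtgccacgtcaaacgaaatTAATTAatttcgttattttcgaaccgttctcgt
The dgn-1 stretch held the palindrome TAATTA at 2 places, the unc-44 stretches held it at 1 place each, and unc-33 and unc-34 held CAATTA, the reverse complement of TAATTG. In the genome as a whole, 12.4% of consecutive windows of 101 bp held TAATTR.

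Shares with a peak were similar across the roles, given how few genes each holds. Ligands had a peak at 3 of 10 genes (30%, exact 95% interval 6.67 to 65.2), receptors at 4 of 12 (33.3%, 9.92 to 65.1), matrix genes at 2 of 7 (28.6%, 3.67 to 71) and cytoplasmic genes at 4 of 15 (26.7%, 7.79 to 55.1). Genes outside the list with the same window lengths gave 1.45, 1.90, 1.04 and 2.28 genes for these roles, in the same order. The intervals of the roles overlap widely, and each includes the share at genes of the same window length.

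**Figure D1:**
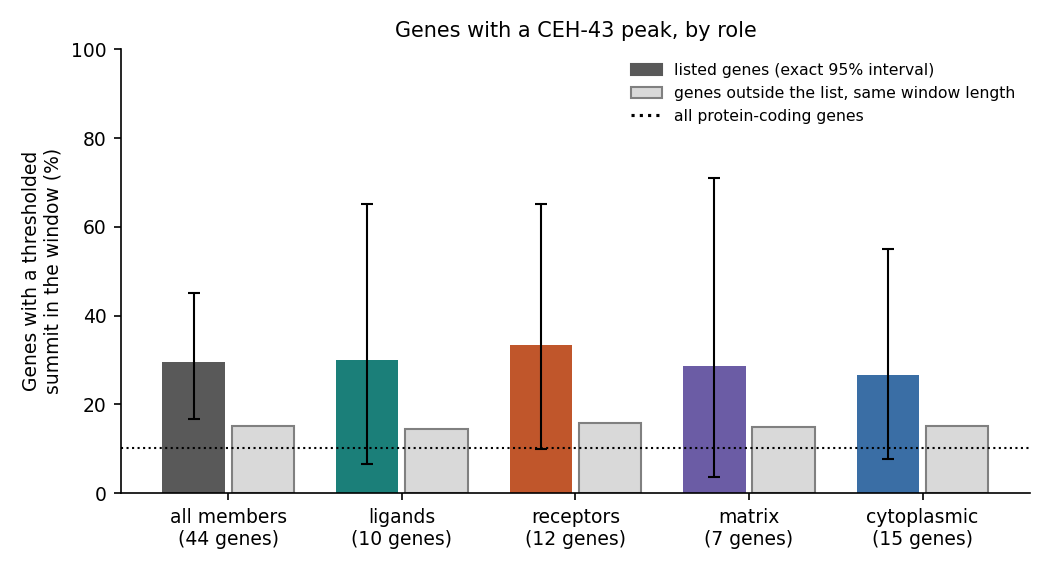
Percent of genes with a thresholded CEH-43 summit inside the gene or within 5000 bp of a start, for all 44 listed genes and for each role. Coloured bars are the listed genes with exact 95% binomial intervals, grey bars the share at genes outside the list with the same window lengths, and the dotted line the 10.1% of all protein-coding genes; the listed genes stand at 26.7% to 33.3% in every role.

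Among the ligands, the strongest summit was at unc-129, which encodes a TGF-beta family ligand that guides motor axons dorsally. The summit lay at chromosome IV position 9007077, in intergenic sequence 1667 bp upstream of the start, with a signal of 172 in the list from both replicates. It ranked 589 in replicate 1, with a signal of 88.8, and 894 in replicate 2, with a signal of 81.1. Both replicates therefore had it in their top sets, and TAATTA lay 32 bp from the summit.

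The gene efn-4 encodes a divergent ephrin with roles in epidermal and neural morphogenesis. Its summit at IV position 565204 was intronic, 5970 bp downstream of the start, with a signal of 147. It ranked 1038 in replicate 1 and 1139 in replicate 2, just outside the top set of either. A different intronic summit of efn-4, 4719 bp from the start and with TAATTR, ranked 637 in replicate 1.

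The secreted semaphorin gene mab-20 was counted through a summit that lay beyond its 3′ end. That summit, with a signal of 146, was in an intron of the neighbouring gene Y73E7A.8 and 4941 bp from an internal start of mab-20. It ranked 2111 in replicate 1 and 760 in replicate 2.

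The best known long-range cues were weakly marked. The strongest summit in the window ranked 10084 in the list from both replicates at unc-6, the netrin gene, and 21652 at slt-1, the slit gene. These names, and those of other members ranked beyond 1342, were picked after their values were seen. At unc-6 the strongest summit ranked 11491 in replicate 1 and 7382 in replicate 2, and at slt-1 it ranked 9380 and 9703. The semaphorin gene smp-1 stood at 5236 and madd-4, which encodes a secreted cue for muscle arms and axons, at 12875. The ephrins spread widely, with vab-2 at 1303, efn-2 at 5011 and efn-3 at 19331 beside efn-4 at 888.

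Among the receptors, the strongest summit was at ptp-3, which encodes a receptor tyrosine phosphatase of the LAR family. It lay in an intron at II position 10990815, 2692 bp upstream of the nearest of the gene's 9 starts, with a signal of 220. It ranked 266 in replicate 1, with a signal of 124, and 600 in replicate 2, with a signal of 92.8. No TAATTR lay within 50 bp, although the called interval held 3 such words.

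The dystroglycan gene dgn-1, whose product links cells to laminin, had an intronic summit at X position 10925747 with a signal of 169. It ranked 361 in replicate 1 and 1758 in replicate 2, so it was outside the top set of replicate 2. The summit had 3 TAATTR words within 50 bp and lay 2228 bp upstream of the nearest start of dgn-1, inside the longer transcript.

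The Eph receptor gene vab-1 had 2 intronic summits, 3478 and 11123 bp downstream of its start. The distal summit, at II position 4583123 with a signal of 168, ranked 402 in replicate 1 and had no counterpart within 100 bp in replicate 2. The nearest summit in replicate 2 lay 122 bp away and ranked 1046. The proximal summit, at II position 4575478 with a signal of 144, ranked 733 in replicate 1 and 1200 in replicate 2. Replicate 1 placed its own summits 53 and 65 bp from those in the list from both replicates, and at those positions both had TAATTR within 50 bp.

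The Robo gene sax-3, which encodes the slit receptor, had an intronic summit at X position 3455647, 10278 bp downstream of its nearest start. Its signal was 146, and it ranked 1198 in replicate 1 and 1289 in replicate 2. The position is also covered by the non-coding transcript ZK377.9. A second thresholded summit, with a signal of 153 and rank 794, lay 6613 bp upstream of sax-3 and so outside the window.

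The netrin receptors were weaker than these. The strongest summit in the window of unc-40, the DCC gene, ranked 4120, and that of unc-5 ranked 5914. In replicate 1 they ranked 7612 for unc-40 and 3178 for unc-5, and in replicate 2 they ranked 3569 for unc-40 and 2413 for unc-5. The semaphorin receptor plx-2 stood at 743 in replicate 1 but 14658 in replicate 2, the widest split between replicates among the receptors, while plx-1 stood at 3766 in replicate 1 and 3471 in replicate 2.

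**Figure D2:**
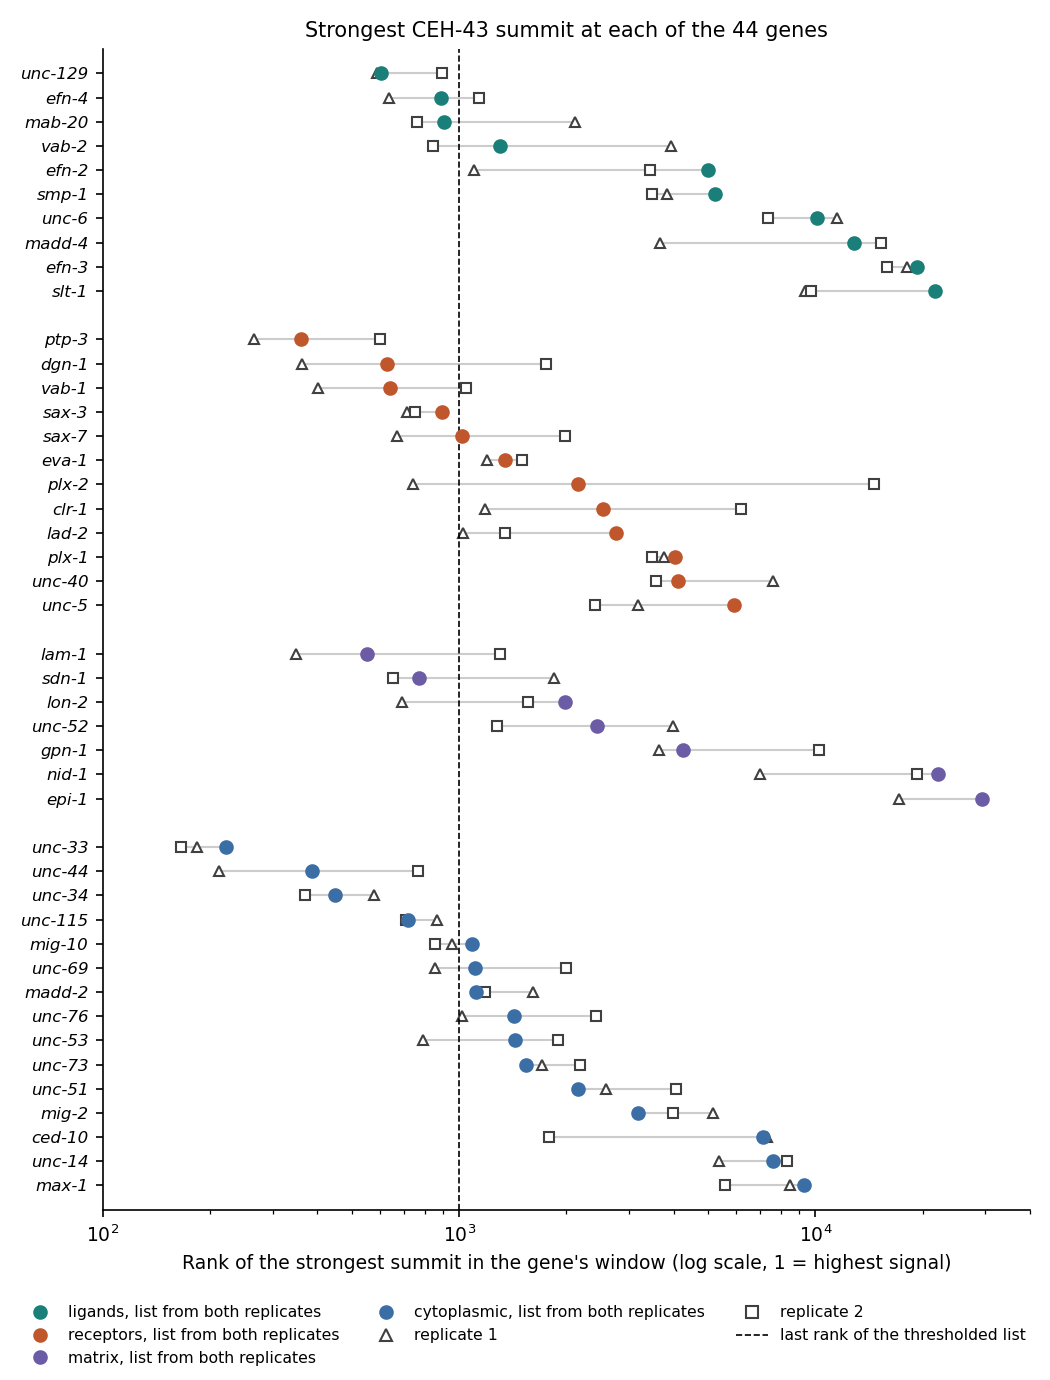
Rank of the strongest CEH-43 summit in the window of each of the 44 genes, on a log axis, grouped by role from ligands at the top to cytoplasmic genes at the bottom. Filled circles are the list from both replicates, triangles replicate 1 and squares replicate 2, grey lines join them, and the dashed line is the last rank of the thresholded list, to the left of which lie 13 filled circles; epi-1 had no summit in replicate 2.

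Among the matrix genes, lam-1, which encodes laminin beta, had a summit with a signal of 180 at IV position 5183862. It ranked 348 in replicate 1 and 1594 in replicate 2. It lay past the 3′ end of lam-1, in the promoter of the neighbouring gene W03F8.4 and 261 bp from that gene's start, and was counted because a short lam-1 transcript starts 949 bp away. The assignment to lam-1 therefore rests on the window rule.

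The syndecan gene sdn-1, whose product is a cell surface heparan sulphate proteoglycan, had the only summit of the 17 in a coding exon. That summit, at X position 10592081 with a signal of 155, ranked 2679 in replicate 1 and had no counterpart within 100 bp in replicate 2. Replicate 2 had a summit 151 bp away, in the adjoining intron, that ranked 653. Both lay a little over 1000 bp downstream of the start.

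The other matrix genes had no thresholded summit and spread widely in rank. The laminin alpha gene epi-1 had its strongest summit at rank 29414, with none in replicate 2, and the nidogen gene nid-1 at rank 22140. The perlecan gene unc-52, with the longest window of the list at 43420 bp, stood at 2437. The glypican genes stood at 1984 for lon-2 and 4263 for gpn-1.

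The cytoplasmic genes held 7 of the 17 summits and the strongest of all. The highest signals were at unc-33, which encodes a CRMP family protein that organises axonal microtubules. Its stronger summit, at IV position 3521913 with a signal of 278, ranked 184 in replicate 1, with a signal of 146, and 253 in replicate 2, with a signal of 138. Replicate summits lay 17 bp and 1 bp away, TAATTG was 12 bp from the summit, and the place is an intron 2229 bp downstream of the nearest start. The other unc-33 summit, at IV position 3524833 with a signal of 265, ranked 444 in replicate 1 and 166 in replicate 2. It lay within 100 bp of a tRNA gene inside an unc-33 intron and had no TAATTR in its called interval, and the nearest protein-coding start belonged to M57.2.

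The ankyrin gene unc-44, which acts with unc-33 in organising axonal microtubules, had a summit in an intron and another upstream. The intronic summit at IV position 5978434, with a signal of 214, ranked 212 in replicate 1 and 1026 in replicate 2. Its upstream summit at IV position 5973493, with a signal of 158 and 2064 bp from the start, ranked 944 in replicate 1. Replicate 2 had a summit 181 bp from that one, at rank 766. Both unc-44 summits had TAATTA.

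The gene unc-34 encodes the worm Enabled protein, which promotes actin filament growth. Its summit at V position 978835 was intergenic, 3871 bp upstream of unc-34 and 3746 bp from the start of Y50D4C.12, with a signal of 198. It ranked 576 in replicate 1 and 369 in replicate 2, so both replicates had it in their top sets. It fell outside windows of 2000 bp and 1000 bp around the starts.

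The abLIM gene unc-115, which encodes an actin-binding protein acting with Rac, had a summit in its promoter and another further upstream. The promoter summit, at X position 10146720, 172 bp upstream of the start and with a signal of 153, ranked 1342 in replicate 1 and 709 in replicate 2. The upstream summit, at X position 10145202, 1690 bp from the start and with a signal of 159, ranked 868 in replicate 1 and 783 in replicate 2. It overlapped a tRNA gene and the non-coding transcript F09B9.7. Neither called interval held TAATTR.

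**Figure D3:**
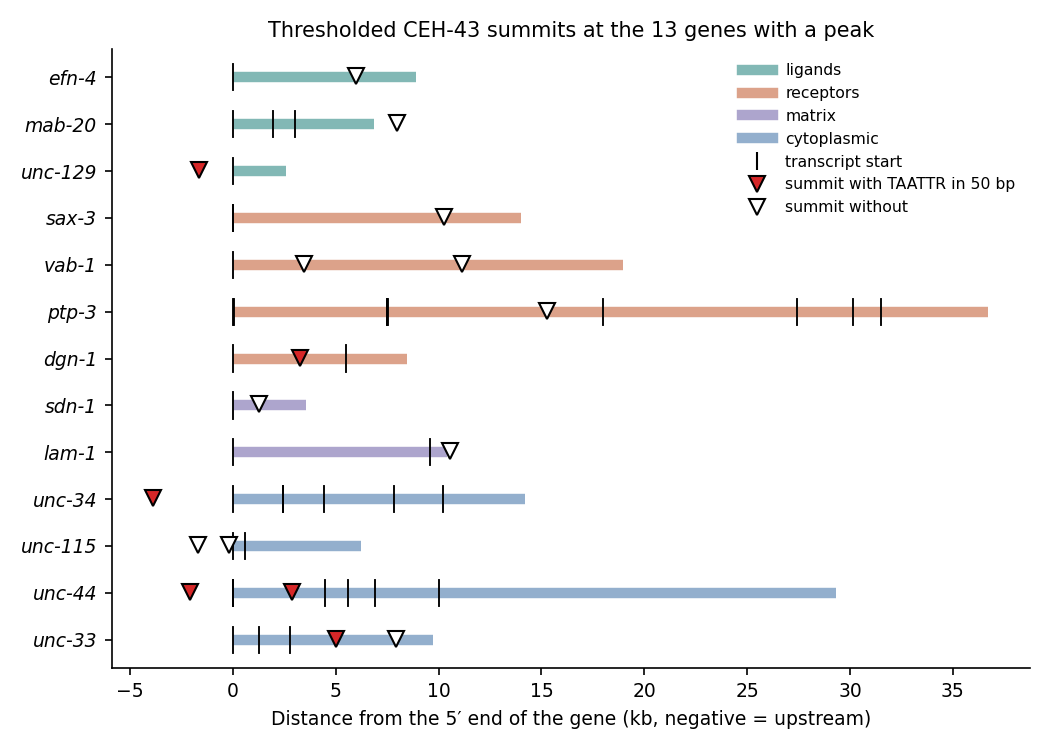
Position of the 17 thresholded CEH-43 summits at the 13 genes with a peak, in kb from the 5′ end of each gene, drawn to scale. Bars span the gene from its 5′ to its 3′ end and are coloured by role, ticks are transcript starts, and triangles are summits, red where TAATTR lies within 50 bp (6 summits) and white where it does not (11 summits).

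Most summits at the listed genes were annotated as intronic and few as promoter, with promoters taking precedence where annotations overlapped. An intron held 10 of 17 (58.8%, exact 95% interval 32.9 to 81.6), against 227 of 958 other nuclear summits (23.7%, 21.0 to 26.5). A promoter, up to 1000 bp upstream of a start, held 2 of 17 (11.8%, 1.46 to 36.4), against 450 of 958 (47.0%, 43.8 to 50.2). The median distance to the nearest protein-coding start was 2229 bp at the listed genes and 820 bp at the other summits, and 64.7% against 29.0% lay over 2000 bp from any start. At the 1968 other genes of the tenth with the longest windows, whose windows held 371 summits, 38.3% of summits were intronic and 45.0% were in a promoter. That intron share lies within the interval at the listed genes, whereas that promoter share lies above theirs (1.46 to 36.4). The summits of unc-129, sdn-1 and unc-115 belong to listed genes with shorter windows, so the match in length is partial. No difference in place was tested. All 5 receptor summits were intronic, as were 3 of 7 at cytoplasmic genes, 2 of 3 at ligands and 0 of 2 at matrix genes. The intron at mab-20 was that of the neighbouring gene Y73E7A.8, and the weaker unc-33 summit lay within 100 bp of a tRNA gene.

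Counts by nearest start depended on the distance allowed. With a peak given only to the gene with the nearest start within 2000 bp, 4 of the 44 genes had a peak (9.09%), namely unc-129, sdn-1, unc-115 and unc-44, against 3.27% of all genes and 2.88 genes from the same window lengths. No receptor gene had a peak by that rule. With the nearest start at any distance, a rule chosen after seeing the data, 10 of 44 genes had a peak (22.7%), against 4.39% of all genes and 3.95 genes from the same window lengths, and 4 of the 10 were receptor genes. Of the 17 summits, the nearest start belonged to the listed gene at 12 and to another gene at 5. Signals at the listed genes were moderate, with a median of 168 and a range of 144 to 278, against a median of 186 and a range of 139 to 1516 at the other nuclear summits. Of the 17, 5 were in the stronger 50% of the thresholded list, and they belonged to unc-33, ptp-3, unc-44 and unc-34. Those 4 genes of 44 (9.09%) stood against 5.40% of all genes and 3.39 genes from the same window lengths, a ratio of 1.18.

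Beyond the threshold, summits of lower rank were frequent in these windows. Of the 44 genes, 28 had a summit among the 3000 strongest of the relaxed list (63.6%, exact 95% interval 47.8 to 77.6), against 25.2% of all genes and 16.3 genes from the same window lengths. The share was 75.0% for receptors, 73.3% for cytoplasmic genes, 57.1% for matrix genes and 40% for ligands, where the same window lengths give 38.7% for receptors, 37.2% for cytoplasmic genes, 36.3% for matrix genes and 34.9% for ligands. The median rank of the strongest summit in the window was 1762 for the listed genes, 4618 for other genes weighted to the same window lengths and 7934 for all genes. By role the median rank was 5124 for ligands, 1750 for receptors, 2437 for matrix genes and 1424 for cytoplasmic genes. All 44 genes had at least 1 relaxed summit, with a median of 9 and at most 27, and 85.2% of all genes had one.

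The member just outside the threshold was sax-7, at rank 1017 with a signal of 138, and the member just inside it was mab-20, at rank 905 with a signal of 146. The lowest signal of any thresholded peak was 139. The L1 family adhesion gene sax-7 ranked 668 in replicate 1 and 1982 in replicate 2. It was followed by mig-10, which encodes the worm lamellipodin, at rank 1087, with 953 in replicate 1 and 855 in replicate 2. The gene unc-69, for a short coiled-coil protein of axon outgrowth, ranked 1107, with 854 in replicate 1 and 1997 in replicate 2. The tripartite-motif gene madd-2 ranked 1118, with 1609 in replicate 1 and 1182 in replicate 2. The ephrin gene vab-2 ranked 1303 and eva-1, for a slit co-receptor, ranked 1342. The top set of replicate 1 included sax-7 and unc-69, and that of replicate 2 included vab-2. Both included mig-10, through different intronic summits, downstream of the nearest start in replicate 1 and upstream of the nearest start in replicate 2.

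Altogether 15 of the listed genes had their strongest summit below the threshold but among the 3000 strongest of the relaxed list. The others in that range were the receptor genes plx-2, clr-1 and lad-2, the matrix genes lon-2 and unc-52 and the cytoplasmic genes unc-53, unc-73, unc-76 and unc-51. A further 10 genes stood at ranks 3001 to 10000, namely efn-2, smp-1, unc-40, unc-5, plx-1, gpn-1, ced-10, mig-2, unc-14 and max-1, and 6 stood beyond 10000. The share of all genes in each of these bands of rank is not given here. The Rac gene ced-10 ranked 7300 in replicate 1 and 1788 in replicate 2, in a window of 10001 bp. The Trio gene unc-73, a Rac activator, ranked 1706 in replicate 1 and 2178 in replicate 2, in a window of 37440 bp.

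TAATTR was common at the strongest summits of the members just below the threshold. Of the 15 such summits, 12 had the word within 50 bp (80.0%, exact 95% interval 51.9 to 95.7), against 552 of 1387 strongest summits of other genes in the same range (39.8%, 37.2 to 42.4). The lacking ones were lon-2, unc-51 and madd-2. This comparison was chosen after the values were seen. Over all summits of that range in the windows, 21 of 44 had the word (47.7%, 32.5 to 63.3), against 37.7% of other nuclear summits, and the flanks 500 bp away gave 5.68% at the listed genes and 10.7% at the others.

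Over all summits in the windows, the word was as frequent at the listed genes as elsewhere in each range of rank, within counting error. That includes the range just below the threshold, where intervals were apart only when the strongest summit of each gene was counted. Among the thresholded summits the share was 35.3% (14.2 to 61.7), against 32.0% (29.1 to 35.1), with flanks at 11.8% and 12%. At ranks 3001 to 10000 it was 28.8% against 30.6%, and at ranks beyond 10000 it was 19.4% against 22.5%. By role the thresholded summits with the word were 1 of 3 at ligands, 1 of 5 at receptors, 0 of 2 at matrix genes and 4 of 7 at cytoplasmic genes. A tRNA gene lay within 100 bp of 2 of the 17 summits (11.8%), against 15.9% of other thresholded nuclear summits.

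**Figure D4:**
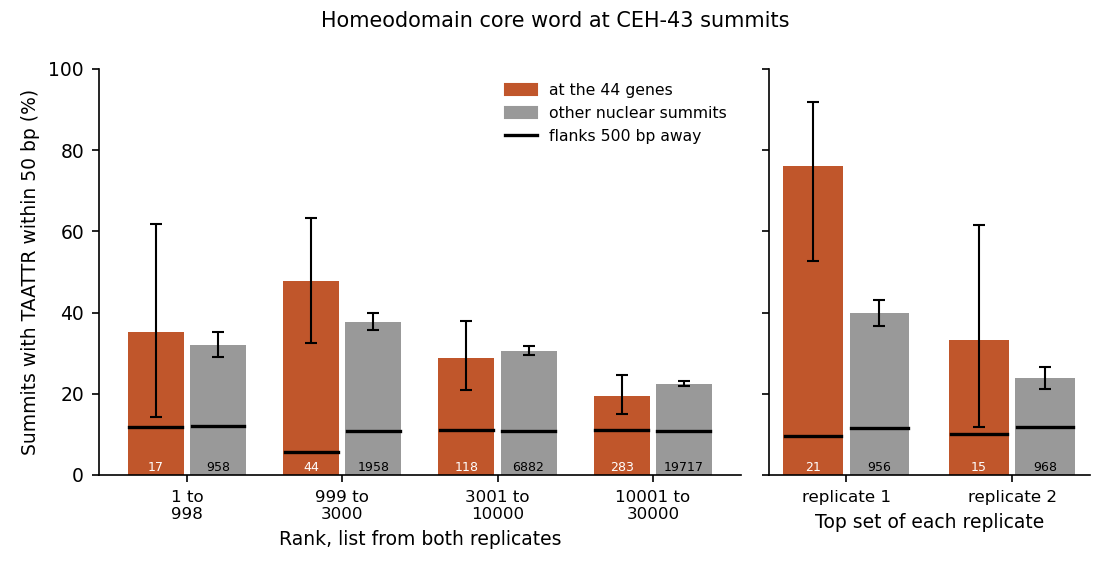
Percent of summits with TAATTR within 50 bp, at the 44 genes and at other nuclear summits, by rank in the list from both replicates (left) and in the top set of each replicate (right). Error bars are exact 95% binomial intervals, black lines the share in windows 500 bp away, and numbers at the base count summits; at the listed genes the share was 76.2% in replicate 1 and 33.3% in replicate 2.

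The replicates differed in which of these genes they placed high. In its top set, replicate 1 had 17 of the 44 genes (38.6%, exact 95% interval 24.4 to 54.5), against 10% of all genes. The same window lengths gave 6.59 genes in replicate 1. Replicate 2 had 11 (25%, 13.2 to 40.3), against 9.71% of all genes and 6.58 genes from the same window lengths. Of the listed genes 8 were in both sets, whatever the position of the summits, 9 were in replicate 1 alone and 3 in replicate 2 alone. The same split over all genes is not given here, so whether it is particular to the listed genes was not tested. Receptors stood at 6 of 12 in replicate 1 and 2 of 12 in replicate 2, where the same window lengths gave 1.89 and 1.88. Cytoplasmic genes stood at 7 of 15 and 5 of 15, where the same window lengths gave 2.25 in each replicate. With a summit required in the top sets of both replicates within 100 bp of each other, 4 of 44 genes remained (9.09%, 2.53 to 21.7), against 6.29% of all genes and 4.03 from the same window lengths. That count, made up of unc-129, ptp-3, unc-34 and unc-33, was not above the number from window length. With top sets of double the size it was 12 of 44 genes (27.3%), against 9.64% of all genes and 6.37 from the same window lengths.

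Of the 17 thresholded summits, 14 had a counterpart within 100 bp in both relaxed replicate lists and 3 in that of replicate 1 alone. The top set of replicate 1 held 12 of them, that of replicate 2 held 8, and 6 were in both. The same counts at the other thresholded summits are not given here, so no comparison with them is drawn. In replicate 1, 16 of the 21 summits at the listed genes had TAATTR (76.2%, 52.8 to 91.8), against 39.9% (36.7 to 43) at its other nuclear summits, a comparison with other summits added after seeing the data. In replicate 2, 5 of 15 had it (33.3%, 11.8 to 61.6), against 23.8% (21.1 to 26.6). The intervals of listed and other summits were apart in replicate 1 and overlapped in replicate 2, and the difference between replicates was not tested.

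Further genes of the same processes, from lists written out by role, were counted in the same way. Of 26 other guidance genes, 3 had a peak (11.5%, 2.45 to 30.2), against 3.61 from the same window lengths, a ratio of 0.832. These were wve-1, a subunit of the WAVE actin regulator, with a signal of 207, gex-3, another subunit of that complex, with 146, and crml-1, the CARMIL homologue, with 145. Of 24 other matrix and adhesion genes, 4 had a peak (16.7%, 4.74 to 37.4), against 3.09 from the same window lengths, a ratio of 1.30. These were the hemicentin gene him-4, with a signal of 579 at a tRNA gene, the integrin beta gene pat-3 with 330, the discoidin domain receptor gene ddr-2 with 221 and 148, and the heparan sulphate sulphotransferase gene hst-2 with 168. The summits counted for wve-1, crml-1 and pat-3 lay in promoters of neighbouring genes, and that for hst-2 in an intron of the neighbouring gene C34F6.7. The him-4 summit was in a him-4 intron, with the nearest start that of F15G9.5. The intervals of both lists overlap that of the 44 genes, and the differences between lists were not tested.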

How the data were processed

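ChIP-seq peak lists of 2 replicates were used. Per the text files that accompany the deposited lists, the relaxed list of each replicate was derived from that replicate's reads and a shared control, a further relaxed list came from both replicates, and the thresholded list holds peaks kept after an irreproducible discovery rate step. No source used here names the aligner, peak caller, versions or cutoff. The deposited signal value, of unstated scale, served only to rank peaks within a list and to describe them, and summits came from the deposited offsets. Replicates are separate biological samples per the labels. With 1 group, no test between groups could be made. The control and signal tracks were not used here, and 0 value columns were left unmapped.

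Genes and places came from Ensembl release 115 (WBcel235, the same assembly as ce11) and bases from RefSeq. Coordinates are 1-based. Where annotations overlapped, a promoter took precedence, then untranslated and coding exons, then introns, then non-coding transcripts. Overlapping and antisense transcripts cannot be told apart in ChIP-seq. Windows of listed and other genes were compared over 10 equal strata of window length, as the mean share with a peak at genes outside the list. Since 13436 genes share a window of 10001 bp, equal strata divide them by identifier. Summits in 2 lists were matched within 100 bp. Intervals are exact (Clopper-Pearson, 95%) and cover counting error over genes or summits only, and neighbouring genes can share a summit.

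The members, lists, windows and alternatives were chosen with earlier results of these data known. The naming rule took every member with a thresholded summit, the next 6 members by rank down to rank 3000, and up to 4 genes of each further list by signal. Of the further symbols, 1 (enu-3) matched no gene. Python 3.11.15, numpy 2.4.6, scipy 1.17.1 and matplotlib 3.10.9 were used. The window and strata steps were tested on simulated data, and the word step at random positions of the genome.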

Additional observations from a re-analysis of the deposited data

How the results depend on the processing

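Of 82 alternative values, 57 were within 1.5 times the reported count or, for TAATTR, within the wide interval of the reported share, or, for the median best rank, within the SD between replicates. The top set of a single replicate, in place of the thresholded list, gave 11 to 17 members with a peak. It gave 2 to 3 ligands, 2 to 6 receptors, 1 to 2 matrix genes and 5 to 7 cytoplasmic genes. Summits numbered 15 to 21, with a TAATTR share of 33.3 to 76.2%. The relaxed list of a single replicate gave a median best rank of 1403 to 1937. No replicate was left out of the thresholded list itself. The lower receptor count was in replicate 2 and the higher word share in replicate 1. The stronger 50% of the thresholded peaks gave 4 members, 0 ligands, 1 receptor, 0 matrix genes and 5 summits, and the ratio of members to the number from window length was 1.18 in place of 1.95. The TAATTR share was 60% in those 5 summits and 58.8% within 100 bp of the summit. The 3000 strongest relaxed peaks gave 28 members, 9 receptors, 4 matrix genes, 11 cytoplasmic genes and 61 summits. The nearest start within 2000 bp gave 4 members, 1 ligand, 0 receptors, 1 matrix gene, 2 cytoplasmic genes and 5 summits. Matrix genes numbered 1 with thresholded peaks found in replicate top sets of double the size, and 1 by nearest start at any distance, an alternative chosen after seeing the data. A window of 1000 bp gave 1 ligand, and one of 2000 bp gave a median best rank of 2638. Requiring a summit in both replicates gave 12 members with top sets of double the size. Fewer or more peaks, or a narrower window, change these counts by construction, and for the replicates the cause was not tested. The number of members from window length was 6.76 with 20 strata and, by alternatives chosen after seeing the data, 6.55 with genes of equal length in 1 stratum and 6.81 from the 200 genes nearest in length. No paired analysis was possible because the study has 1 group. Read depth is unknown, and 2 replicates limit every per-gene rank.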
